A study of Mus musculus with 3 samples.

Results

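The calcium release genes of heart muscle were examined for chromatin occupancy by FOG2, a zinc finger cofactor of GATA factors that is the product of Zfpm2, in embryonic mouse ventricle. The 8 genes were Ryr2, Casq2, Trdn, Asph, Jph2, Hrc, Itpr1 and Itpr2. They were chosen by name, and a peak was given to the nearest protein-coding gene body when its summit lay inside that body or within 100 kb of it. By this rule 18 of the 6166 peaks in the series were assigned to these genes, and 7 of the 8 genes, out of 21627 protein-coding genes, had at least 1 peak. The study compared 2 FOG2 pulldown libraries with 1 input library, all from ventricles of embryos at E12.5 (day of gestation) with the alleles Fog2flbio/flbio;Rosa26BirA/BirA, per the labels' protocols. The bacterial ligase BirA, expressed from Rosa26, biotinylates the tagged FOG2, which was then captured on streptavidin. The input carried the same alleles and had no pulldown, so there was no pulldown from tissue without tagged FOG2. The labels' genotype entry reads WT for all 3 libraries and their antibody entry reads FOG2 for the pulldown, both of which differ from the protocol. About 20 ventricles were pooled for each replicate, and the cell types of the ventricle were not separated. Expression was not measured, so the tissue was not checked against its markers. The authors merged the replicates before calling peaks, so no value below has a spread between replicates and no test between samples could be made.

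Contraction of a heart muscle cell is triggered when calcium entering through surface channels opens ryanodine receptors in the facing sarcoplasmic reticulum, the internal calcium store. The release channel works in a complex. Calsequestrin buffers calcium inside the store, triadin and junctin link calsequestrin to the channel, and junctophilin holds the store membrane close to the surface membrane. IP3 receptors form a separate release pathway that is opened by the second messenger IP3 downstream of hormone receptors.

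Start sites were known for 5 of the genes, from RefSeq promoter entries on GRCm38.p6 (the mm10 build), and no FOG2 peak overlapped the 250 bases before any of them. These 5 genes had 6 such windows, since Jph2 has a pair of start sites. A peak overlapped 0.366% of the 21044 windows of all protein-coding genes, so an empty promoter window was the common case. The windows of Ryr2, the gene with the most summits, of Casq2, which held the most matches, and of Hrc, the gene without a summit, are printed here because distances from a start site are counted from the base that follows them. They read 5′ to 3′ on the gene's own strand, and capitals mark a match to any of 5 short motifs of cardiac transcription factors.
Ryr2, chr13:12106946-12107195, minus strand: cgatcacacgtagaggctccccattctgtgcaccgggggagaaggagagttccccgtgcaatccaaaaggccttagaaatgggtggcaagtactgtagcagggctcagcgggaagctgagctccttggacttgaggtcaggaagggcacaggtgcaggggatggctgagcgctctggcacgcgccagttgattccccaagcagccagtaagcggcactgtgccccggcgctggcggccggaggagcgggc
Casq2, chr3:102086165-102086414, plus strand: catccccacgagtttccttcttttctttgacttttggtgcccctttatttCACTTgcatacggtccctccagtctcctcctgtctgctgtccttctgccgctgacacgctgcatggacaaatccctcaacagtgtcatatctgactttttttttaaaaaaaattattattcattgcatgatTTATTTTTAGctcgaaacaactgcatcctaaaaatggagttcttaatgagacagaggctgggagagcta
Hrc, chr7:45335019-45335268, plus strand: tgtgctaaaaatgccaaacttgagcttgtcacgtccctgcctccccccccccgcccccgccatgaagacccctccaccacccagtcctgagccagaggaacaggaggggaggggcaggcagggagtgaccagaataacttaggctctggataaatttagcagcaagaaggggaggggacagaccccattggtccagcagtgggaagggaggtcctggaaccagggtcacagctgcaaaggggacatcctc
The motifs were searched on both strands as AGATAA or TGATAA for GATA factors, GGTGTGA or GGTGTTA for T-box factors, GGAATG for TEAD, AAGTG for NKX2-5, and the MEF2 motif. None of the 6 windows held the GATA, T-box or TEAD letters, which were present in 14.5%, 4.12% and 11.6% of all windows. The Casq2 window held 1 MEF2 match and 1 NKX2-5 match, against 2.48% and 39.6% of all windows with each. Both Jph2 windows held the same NKX2-5 match. These are descriptions of letters in a window and not of binding.

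Ryr2 encodes the ryanodine receptor that releases calcium from the sarcoplasmic reticulum of heart muscle. It held 10 of the 18 summits. Only 0.0277% of protein-coding genes, 6 in number, had at least 10, and 2 of them had more than Ryr2. Its body spans chr13:11553099-12106945 on the minus strand, 554 kb in all. Of the 10 summits, 6 lay inside the body, 3 lay together before the start site, and 1 lay 98.6 kb beyond the far end.

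The strongest FOG2 peak at any calcium release gene lay before the Ryr2 start site. Folds are linear ratios of the pulldown over the control, taken at the summit by the authors' peak caller. The pulldown fragments stacked at a summit were back-calculated from the fold and its −log10 p, and each count has an exact 95% Poisson interval that covers counting error only. Fold intervals were taken from these counts with the control level held fixed, so counting error in the control is left out. The peak at chr13:12132005-12132516 had its summit 25.4 kb before the start and reached 17.6-fold, resting on 44 fragments (32.0 to 59.1). At 512 bp it was also the widest of the 18 peaks, and 4.02% of all 6166 peaks had a fold as high or higher. A second summit 1309 bp further from the gene was 10.97-fold with 30 fragments (20.2 to 42.8), and another, 388 bp beyond that, was 3.46-fold with 13 fragments (6.92 to 22.2). The fold intervals of the nearest and the farthest of these, 12.9 to 23.5 and 1.96 to 5.75, did not overlap. Sonicated fragments of 300 to 800 bp can span the 388 bp between the farther pair, so those 2 summits may share fragments and cannot be taken as independent. The nearest other gene, Mtr, was 47.3 kb or more away from all 3.

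The summits inside Ryr2 were spread over the 359 kb that follow the start. The summit nearest to the start lay 2.48 kb into the gene, at chr13:12104375-12104791, and was 9.30-fold with 16 fragments (9.15 to 26.0). A pair followed at 70.0 and 76.2 kb, 6.21 kb apart, with 5.69- and 6.72-fold on 22 and 18 fragments. A further pair, 10.8 kb apart, lay at 240.4 and 251 kb, with 6.22- and 6.74-fold on 9 and 10 fragments. The last lay at 359 kb and was 6.84-fold with 10 fragments. The final 195 kb of the body held no summit. Counting intervals of the 6 inside summits all overlapped, and they could not be ranked at this depth. The summit beyond the far end was the weakest but one at 4.06-fold, with 8 fragments (3.45 to 15.8).

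**Figure D1:**
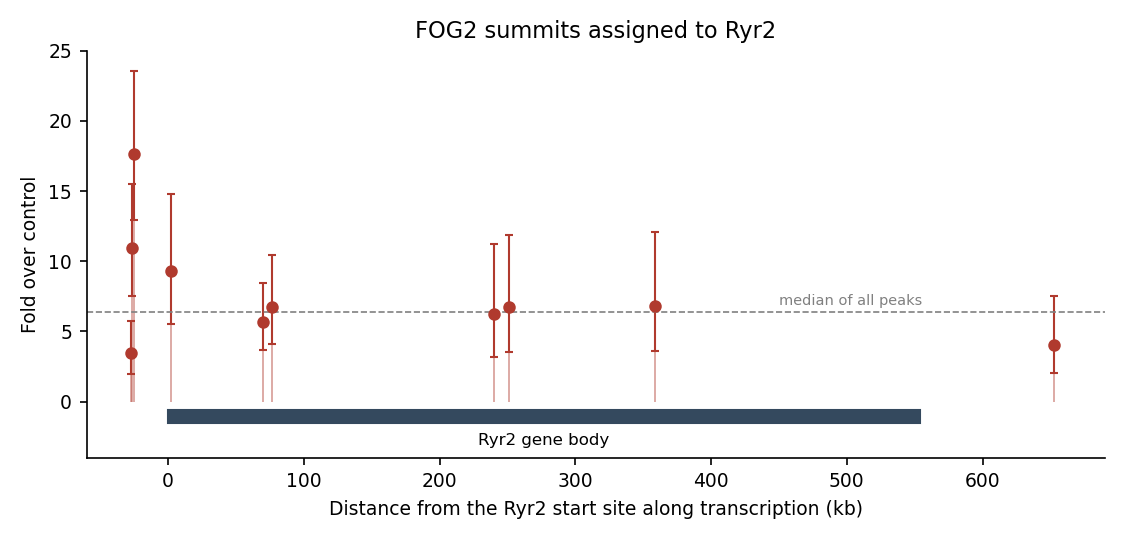
Fold over control of the 10 summits assigned to Ryr2, against distance in kb from the start site in the direction of transcription, with negative values before the start. Bars are 95% Poisson intervals on the fragments, the dark bar is the gene body and the dashed line is the median of all peaks, 6.39-fold. The 2 highest summits lie 25.4 and 26.7 kb before the start.

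A summit close to Ryr2 was assigned to its neighbour Mtr. It lay 52.1 kb from Ryr2 and 22.3 kb from Mtr, at chr13:12158907-12159180, and was 8.82-fold with 13 fragments. The assigned summit at 98.6 kb was the one nearest to the limit of 100 kb. Outside that limit, the nearest summit to any of the genes was 122 kb from Itpr1, at 4.35-fold with 6 fragments, and lay closer to Bhlhe40. Which gene, if any, a given site regulates cannot be read from its nearest gene body.

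Long gene bodies catch more summits, and Ryr2 stood high among genes of its own length by total count but less so by summits inside the body. Of 309 other genes within 1.5 times its length, 71.5% had a summit, with a median of 1, and 0 had 10 or more. The highest count among them was 9, at Ank3 and others. Ryr2 itself had 9 when summits within 1 kb were counted once, and 9 when genes of any biotype were used. With a −log10 q of at least 5 it had 8. At least 6 summits inside the body were found in 14 of those 309 genes. Without the 4 summits outside the body, Ryr2 was therefore matched or exceeded by these 14 genes of like length. The genes most like Ryr2 in summit number and strongest fold were Ror1 with 10 summits up to 18.4-fold, Ank3 with 9 up to 18.0-fold and Rbfox1 with 9 up to 17.1-fold. Likeness was measured over this single peak list as the sum of the 2 absolute log2 ratios, and was 0.063, 0.18 and 0.19 for these genes. All summits of Ror1, Ank3 and Rbfox1 lay inside their bodies.

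The genes of the proteins that sit beside the release channel each had 1 or 2 summits, all inside the gene body. Trdn encodes triadin, which anchors calsequestrin to the channel. Its body spans chr10:33083483-33476709, and the table used here gives no start site for it. The stronger of its 2 summits, at chr10:33123064-33123349, was 9.86-fold with 16 fragments (9.15 to 26.0), 39.8 kb from the lower-coordinate end. The weaker lay 133 kb further along at chr10:33256302-33256480 and was 5.66-fold with 9 fragments (4.12 to 17.1). The fold intervals of the pair, 5.88 to 15.7 and 2.90 to 10.2, overlapped.

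Casq2 encodes calsequestrin 2, the main calcium buffer within the cardiac store. Its single summit lay 13.1 kb into the 60.1 kb body (chr3:102086415-102146514), at chr3:102099342-102099609. It was 8.82-fold with 13 fragments (6.92 to 22.2). The control level there was 0.588, the lowest in the list and shared by 16.7% of all peaks. The same fold and −log10 p were shared by 37 other peaks, the one at Mtr among them.

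Jph2 encodes junctophilin 2, which ties the sarcoplasmic reticulum to the surface membrane. Its single summit was the strongest outside Ryr2, at 10.4-fold with 18 fragments (10.7 to 28.4). It lay at chr2:163359312-163359542, 38.5 kb into the body of 61.8 kb (chr2:163336242-163398049, minus strand). This was the only one of the 18 summits inside another annotated gene body as well, that of the long noncoding RNA Gm35750. Jph2 and Ryr2 were the members with a summit of at least 10-fold, 2 of 8, where 3.01% of protein-coding genes had one.

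Asph encodes junctin, a partner of triadin at the release channel, together with the enzyme aspartate beta-hydroxylase from the same locus. Its summit at chr4:9529650-9529929 had 25 fragments (16.2 to 36.9), the most at any summit outside Ryr2. The control level there was 3.04, which is 5.17 times the lowest level, and the fold was 6.43. Ranked by fragments Asph came next to Ryr2, and ranked by fold it came after Ryr2, Jph2, Trdn and Casq2. The summit lay 80.7 kb from the nearer end of a body of 220 kb (chr4:9449085-9669344), and Clvs1 was 78.1 kb from it. By distance to gene ends in place of gene bodies, this summit would belong to Clvs1.

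Hrc, the gene of a histidine-rich protein that binds calcium in the store, had no summit. It is short, at 3.71 kb (chr7:45335269-45338973). The closest summit to it was 285 kb away at chr7:45623674-45623857, 7.46-fold with 11 fragments, and belonged to Izumo1. A summit was assigned to 4.04% of the 4850 protein-coding genes under 5 kb. The list holds peaks past the caller's threshold, and binding below that threshold at Hrc was not measurable here.

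Of the 7 genes with a summit, the IP3 receptor genes had the lowest strongest folds, close to the 6.43 at Asph and with overlapping counting intervals. Itpr1 had 2 summits inside its body (chr6:108213083-108551116). The one at chr6:108510276-108510491 was 6.39-fold with 12 fragments (6.20 to 21.0), and the one at chr6:108273661-108273859 was 4.46-fold with 9 fragments (4.12 to 17.1). Itpr2, whose product is the main IP3 receptor of heart muscle cells, had 1 summit, 375 kb into a body of 394 kb (chr6:146108299-146502258, minus strand) and so close to its far end. It lay at chr6:146127479-146127685 and was 6.17-fold with 9 fragments (4.12 to 17.1). The summit at Itpr2 and the stronger one at Itpr1 were near the median of all peaks, 6.39-fold, and the weaker one at Itpr1 was below the lower quartile of 5.41-fold.

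A stronger summit lay 35.1 kb before Itpr2 but was nearer to Ints13, 12.3 kb away. It was at chr6:146537206-146537717, 11.3-fold with 22 fragments (13.8 to 33.3). By distance to start sites it would be assigned to Itpr2 and the summit inside the gene would not. Similarly, a summit 84.6 kb from Itpr1 was 6.77-fold with 14 fragments and lay 24.9 kb from Bhlhe40.

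**Figure D2:**
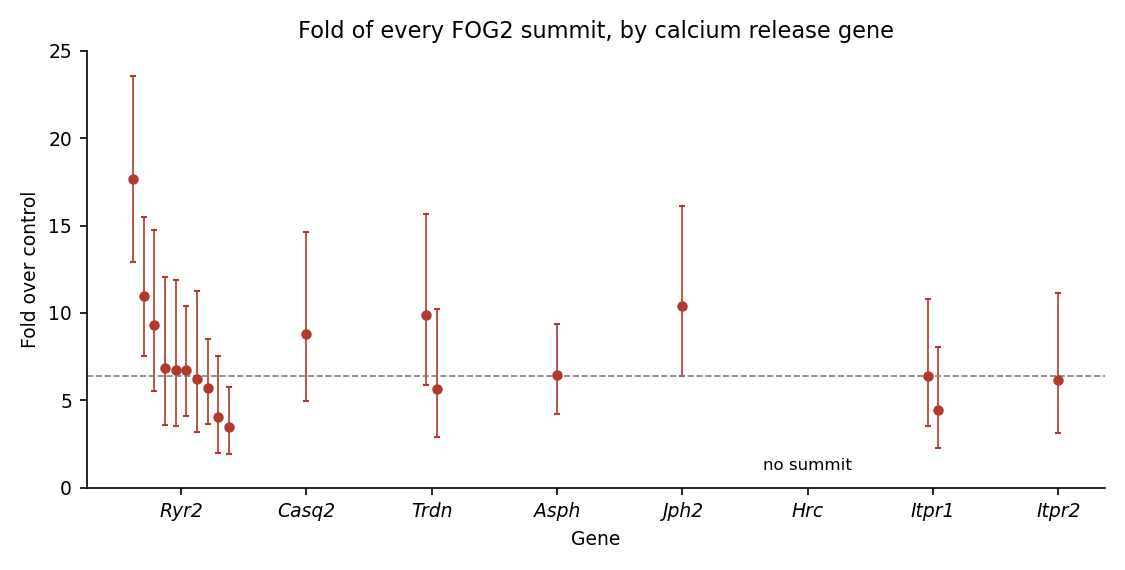
Fold over control of each of the 18 summits, grouped by gene along the horizontal axis and ordered by fold within a gene. Bars are 95% Poisson intervals on the fragments, and the dashed line is the median of all peaks. One Ryr2 summit at 17.6-fold stands above the rest, and Hrc has none.

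In order of their strongest summit, the genes were Ryr2 (17.6-fold), Jph2 (10.4), Trdn (9.86), Casq2 (8.82), Asph (6.43), Itpr1 (6.39) and Itpr2 (6.17). The counting intervals of every neighbouring pair in this order overlapped. The strongest Ryr2 summit, with a fold interval of 12.9 to 23.5, did not overlap those of Asph (4.25 to 9.38), Itpr1 (3.54 to 10.8) or Itpr2 (3.16 to 11.2). It was the highest of 10, which the counting interval does not take into account, nor does the interval include counting error in the control.

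As a group the 18 peaks were of ordinary strength. Their median was 6.58-fold, with quartiles of 5.81 and 9.18, against 6.39-fold with quartiles of 5.41 and 8.66 for the 6148 other peaks. They had a median of 13 fragments and the other peaks 12. A fold of at least 10 was reached by 3 of the 18 (16.7%), against 16.9% of the others. Their median width was 267 bp, against 251 bp. Peaks are not replicates, and no difference here was tested.

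Of the 18 summits, 14 (77.8%) lay inside the gene body. The rule measures from gene bodies, so this share is set in part by the choice of peaks and is not compared with other peaks. Another summit lay within 10 kb for 5 of the 18, all at Ryr2, or 27.8% against 18.6%. The control level exceeded the list's lowest value at all but the Casq2 summit, with a median of 0.931 against 0.828. At 3 summits, those of Asph and 2 of Ryr2, it reached 3.04.

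**Figure D3:**
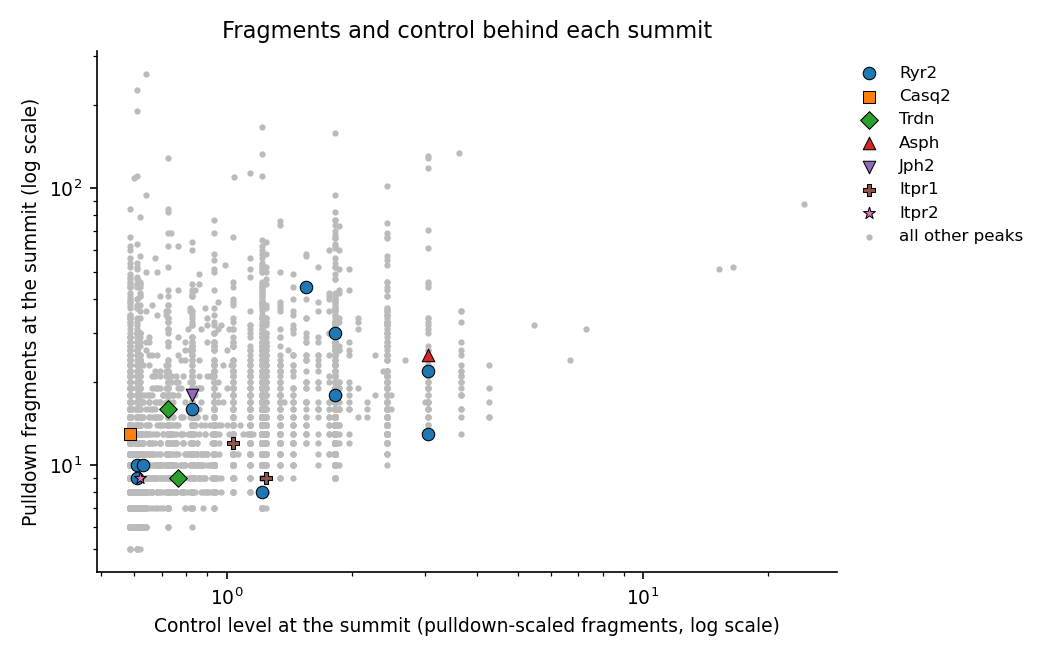
Pulldown fragments at each summit against the control level the caller used there, both on log scales, with the 18 summits by gene and all other peaks in grey. The control level is in fragments scaled to the pulldown. The Asph summit has 25 fragments over a control of 3.04, and the Casq2 summit 13 fragments over 0.588.

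Most of the genes had a summit, and most were long. At least 1 summit was assigned to 7 of 8 members, where 13.6% of all protein-coding genes had one, and 7 of 8 had one inside the body, where 8.31% had one. At least 2 summits were assigned to 3 of the 8 members, and to 4.31% of protein-coding genes. All 5 members with a body of at least 200 kb had a summit, and so did 66.1% of the 989 genes of that length. For these long genes a single summit was therefore common. Casq2 and Jph2 both had one, and of the 1594 genes of 50 to 75 kb 19.1% did. The members were chosen with earlier results of these data known, so these counts are descriptions.

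The 8 bodies held 14 summits over 2.02 Mb, or 0.691 per 100 kb. Without Ryr2 the value was 0.544 per 100 kb, from 8 summits. Over all protein-coding bodies it was 0.272 per 100 kb, and over bodies of at least 200 kb it was 0.317. Summits cluster and the genes were chosen with earlier results known, so no interval is given and no difference was tested.

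**Figure D4:**
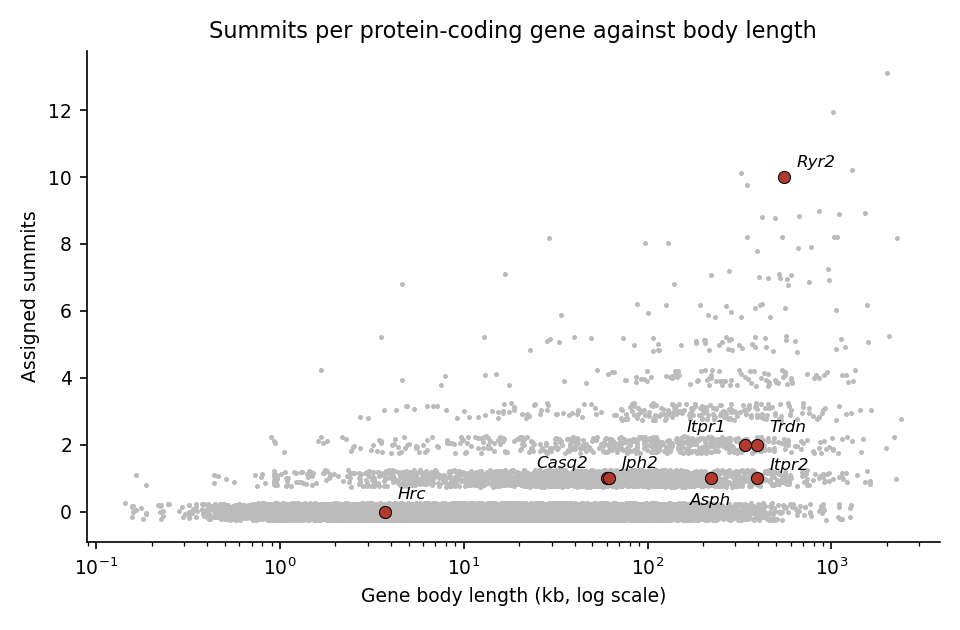
Assigned summits per protein-coding gene against body length in kb on a log scale, with the 8 calcium release genes in red and all genes in grey, spread slightly in height for visibility. Ryr2, with 10 summits, lies just above the other genes within 1.5 times its length, which have up to 9, while Trdn, Itpr1, Itpr2 and Asph have 1 or 2.

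Of the paralogs of these genes that are known mainly from other tissues, namely Ryr1, Ryr3, Casq1, Jph1, Jph3, Jph4 and Itpr3, 1 of 7 (14.3%) had a summit, close to the 13.6% of all protein-coding genes. It was Ryr3, and the count was 0 with a −log10 q of 5 or more, in the stronger 50% of peaks and by nearest gene end or start site. Its single summit, at chr2:113025081-113025479, was 5.60-fold with 8 fragments (3.45 to 15.8). Ryr3 spans 586 kb, a little more than Ryr2, which had 10 summits. The paralogs had a median body length of 65.2 kb, against 279 kb for the calcium release genes.

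Genes of proteins that bind or modify the release channel had a summit in 5 of 15 cases (33.3%), against 13.6% of all protein-coding genes. Camk2d, the gene of a calcium-activated kinase that phosphorylates RYR2, had 3 summits up to 11.2-fold with 18 fragments (10.7 to 28.4). The phosphodiesterase gene Pde4d had 2 summits up to 8.08-fold. The anchoring protein gene Akap6 had 4 up to 7.25-fold, and the kinase gene Speg had 1 at 5.97-fold. No summit was assigned to Fkbp1b, Fkbp1a or Sri, which encode the channel's FK506-binding proteins and sorcin. These 3 were named after their values were seen.

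Genes that shape the reticulum and the surface membrane invaginations had a summit in 5 of 11 cases (45.5%, against 13.6% of all protein-coding genes), none reaching 10-fold. Their strongest folds were 6.84 at Dysf, which encodes the membrane repair protein dysferlin, 5.67 at both Tmem38b, a potassium channel gene of the reticulum, and Tcap, which encodes telethonin, and 5.55 at Bin1, a gene of membrane tubule formation. The Tmem38b summit lay 73.5 kb outside the gene, and the other 3 lay inside. Where the −log10 q had to reach 5 or more, 1 of 11 had a summit.

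Of the genes that make or respond to IP3, 6 of 17 (35.3%) had a summit, against 13.6% of all protein-coding genes. Plcb1, a phospholipase C gene, had the highest fold, 14.5 with 27 fragments (17.8 to 39.3), at a summit 61.3 kb outside the gene. It was followed by Plce1, also a phospholipase C gene, at 9.02-fold, by the adrenergic receptor gene Adra1b at 8.53-fold, and by the endothelin receptor gene Ednra at 8.19-fold and 96.4 kb outside the gene. The genes for calcium entry and removal bring in the trigger calcium, refill the store or expel calcium from the cell. They had a summit in 6 of 8 cases, against 13.6% of all protein-coding genes. Cacnb2, Atp2a2, Slc8a1 and Cacna1c led at 19.8-, 12.9-, 10.2- and 9.80-fold. The Atp2a2 summit lay 19.0 kb outside the gene, and the other 3 lay inside. The bodies of Cacnb2, Slc8a1 and Cacna1c span 385, 365 and 610 kb, and that of Atp2a2 48.7 kb. Of all protein-coding genes of at least 200 kb, 66.1% had a summit. The Pln summit, at 4.25-fold, was also assigned to Cep85l. The 5 lists differ in gene length, and no difference between them was tested.

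**Figure D5:**
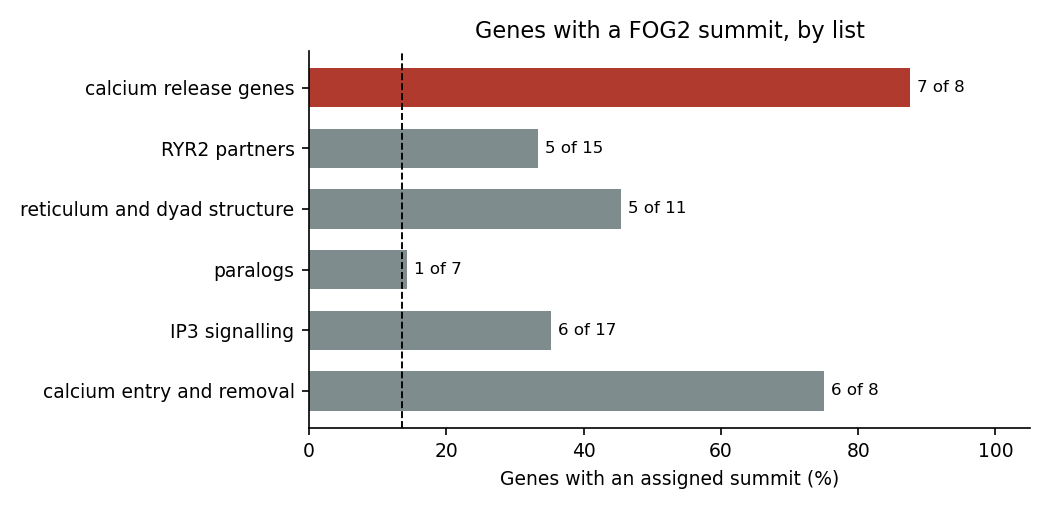
Share of genes with an assigned summit, in percent, for the 8 calcium release genes and the 5 related lists, with counts beside the bars. The dashed line is the share of all protein-coding genes, 13.6%. The calcium release genes have 7 of 8 and the paralogs 1 of 7.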

How the data were processed

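Per the labels' protocols, chromatin was crosslinked with 1% formaldehyde (10 minutes) and sonicated. The submitters' processing notes name Bowtie2 2.3.2, SAMtools 1.5, Picard and MACS2 2.1.1 with the build mm10, without their settings. The authors deposited 1 list of peaks from the pooled pulldown with blacklisted regions removed, per the file's name. That name contains the word FLAG, and the protocol describes capture on streptavidin. The list holds a linear fold, −log10 p and −log10 q values, and summit offsets. It also holds a display score that the authors' caller derived from the −log10 q and that was not used.

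Fragments and control levels were solved from the deposited fold (1 added to both sides) and −log10 p (Poisson tail) with scipy 1.17.1. A whole number matched within 0.001 in 100% of peaks, and for each of the 18 peaks it was unique. The depth of each library is unknown. On 300 simulated peaks made with these same formulas, 100% of fragment numbers were recovered, which checks the arithmetic only. Gene bodies came from a RefSeq table of GRCm38.p6, without exons. A summit lying in several bodies counted for each. The Y chromosome, without peaks, was left out. A planned search for motifs at summits was not made, as no genome sequence was used here. The rule for named genes was all 8 members, up to 4 genes of highest fold per related list and the 3 genes most like Ryr2. All 58 genes of the 5 lists were matched. The members and lists were chosen with earlier results of these data known.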

Additional observations from a re-analysis of the deposited data

How the results depend on the processing

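No paired analysis was possible because the replicates were pooled before peaks were called, and no replicate could be left out. In 6 alternatives, the number of the 8 genes with a peak was 7 in 4 of them and 6 in the stronger 50% of peaks (without Itpr2) and by nearest gene end or start site (without Asph). The median fold of their peaks stayed between 6.58 and 8.82. Of 82 recomputed values, 69 stayed within 1.5 times the count, or within the counting interval of the fold. For the median fold this was the wide interval of the single peak nearest to it. Strongest folds could not change where a gene's strongest summit was kept, so the 69 do not measure stability. The 82 leave out strongest folds in the stronger 50% of peaks and with summits within 1 kb counted once. They also leave out the Asph fold where Asph had no peak. The 13 values that moved follow, and the alternatives themselves remove peaks or reassign them. In the stronger 50% of peaks, summits numbered 11 in all, 6 at Ryr2 and 9 inside gene bodies, and related genes with a peak numbered 3 (RYR2 partners), 1 (reticulum and dyad structure) and 0 (paralogs). With a −log10 q of at least 5 the last 2 were 1 and 0. A limit of 20 kb left Ryr2 with 6 summits and a strongest fold of 9.30. By nearest gene end or start site, 8 summits lay inside gene bodies, the strongest fold at Itpr2 was 11.3 and paralogs had 0. Alternatives on motifs at summits were not run. Few fragments per summit limit any ranking of single peaks, and the lack of replicate values and of an untagged pulldown limits every result.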
